A study of Mus musculus with 16 samples.

Results

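The 37 genes described here encode lysosomal proteins: 11 proteases, 6 enzymes that remove sugars, 7 proteins of lipid breakdown, lipid export and sphingolipid activation (with progranulin), 8 membrane proteins and 5 parts of the proton pump. They were chosen by symbol, and each matched a single row of a count table of 43430 mouse genes. All 37 passed a filter on low counts, as did 11004 genes in all. The cells were bone marrow-derived macrophages of C57BL/6J mice, grown from marrow with 20 ng/mL M-CSF, harvested on day 6 and then plated in MEM. Untreated cells were kept in complete medium (with serine) or in medium lacking serine, and LPS-treated cells received 100 ng/mL LPS, a component of the bacterial outer membrane sensed by Toll-like receptor 4, in one or the other medium. RNA was taken 4 h after LPS, and each of the 4 groups held 4 libraries. The labels number the libraries of a group but do not say whether they came from separate mice or cultures, so the p-values reflect only how far these libraries scatter, part of which may be technical.

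The lysosome is the acidic compartment in which macrophages degrade what they engulf and what autophagy delivers. Its hydrolases work at low pH, which a membrane ATPase maintains by pumping protons inward, and most of them reach it through mannose 6-phosphate receptors. Many of their genes carry a short palindromic element recognised by the MiT transcription factors TFEB, TFE3 and MITF, and in macrophages cathepsins also process antigens and toll-like receptors.

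Promoter sequences are shown first because that element is what many of these genes are known to share. RefSeq promoter windows (mouse build GRCm38.p6), which run from 250 bases before to 50 bases after a start site, were found for 31 of the 37 genes. Ctsb, Ctsh, Asah1, Npc1, Atp6v0d2 and Atp6v1h were not matched. The core CACGTG was present in windows of 12 of the 31 genes (38.7%), against 8.09% of all 27025 genes with windows. Among 76 other lysosomal genes with windows, from the lists described further below, it was present in 18 (23.7%). The longer TCACGTG, searched on both strands and containing the core, was present in 11 of 31 (35.5%), against 4.29% of all genes and 21.1% of those 76. The full palindrome of the CLEAR element, which contains both and is the stretch in capitals in the Cln3 line, was present in 1 of the 31, Cln3, and in 0.37% of all genes. Stretches from 6 of these windows are printed 5′ to 3′ on the gene's strand, with the matched letters in capitals:
Cln3 (chr7:126583330-126583379, minus strand): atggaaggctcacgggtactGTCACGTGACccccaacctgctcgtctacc
Gla (chrX:134601173-134601219, minus strand): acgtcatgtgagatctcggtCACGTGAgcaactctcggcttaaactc
Gaa (chr11:119267802-119267848, plus strand): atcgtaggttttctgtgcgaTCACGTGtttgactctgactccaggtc
Atp6v1a (chr16:44139364-44139410, minus strand): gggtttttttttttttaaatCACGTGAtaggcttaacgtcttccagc
Ctsd (chr7:142387899-142387945, minus strand): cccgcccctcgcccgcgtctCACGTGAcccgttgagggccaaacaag
Mcoln1 (chr8:3500454-3500500, plus strand): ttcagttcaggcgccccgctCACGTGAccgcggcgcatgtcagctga
The Cln3 window is the one that holds the full palindrome, and it belongs to a start site inside the gene as the deposited table spans it. The core lay 118 bases before that start site in Cln3, 191 in Gla, 137 in Gaa, 128 in Atp6v1a, 95 in Ctsd and 42 in Mcoln1. Genes with the core moved in both directions under LPS or in neither. It was present in 1 of the 5 genes with windows that rose with LPS in the presence of serine (Cln3), in 4 of the 9 that fell (Gla, Gaa, Atp6v1a and Atp6v0d1) and in 7 of the 17 that did not pass the test. A match is a run of letters in a window, not a measured binding site.

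Total gene counts ranged from 2871477 to 10043362 per library. The lowest belonged to replicate 4 of the untreated cells without serine, which stood apart: 18 of the 37 genes were higher there and 15 lower than in all of the other 3 libraries of its group. Its lysosomal genes deviated from those 3 by a median of 0.537 (absolute log2), against 0.0625 to 0.172 for the other 15 libraries, each compared with its own group. The comparisons that use it are given with it, and the values that it moved most also without it. The summed level of 8 macrophage markers ranged from 15098.5 to 26292.8 CPM. The 7 osteoclast markers summed to 62.7 to 135.8 CPM, with Calcr, Ocstamp and Oscar under 1 CPM in every library, and 8 neutrophil markers to 8.29 to 107.3 CPM, with Ly6g, Elane, Mpo and Retnlg under 1 CPM. The 5 B-cell and 5 T- and NK-cell markers summed to at most 1.21 and 0.561 CPM, 6 mast cell markers to 0.403 to 4.94 CPM and 5 stromal markers to 1.01 to 44.5 CPM, with 14.5 ± 1.32 CPM of 6 dendritic cell markers after LPS with serine against 1.51 ± 0.656 before (SD, n = 4). The osteoclast markers stood at 80.8 ± 5.51 CPM before and 118.9 ± 21.4 CPM after LPS with serine. The stromal markers stood at 11.6 ± 7.10 CPM before and 36.5 ± 10.2 CPM after LPS with serine. The part of these cell types in the LPS results was not tested.

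Lysosomal transcripts made up a large part of these libraries. In untreated cells with serine the 37 genes took 9.42%, 10.96%, 11.21% and 10.75% of all gene counts in replicates 1 to 4. After LPS in the presence of serine they took 5.73%, 6.83%, 6.74% and 6.61%, and every LPS-treated library lay below every untreated one. Without serine the shares were 9.45%, 11.01%, 11.18% and 11.16% in untreated cells and 5.83%, 7.01%, 6.81% and 6.72% after LPS. Bulk RNA cannot tell fewer cells of a type from less RNA per cell.

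**Figure D1:**
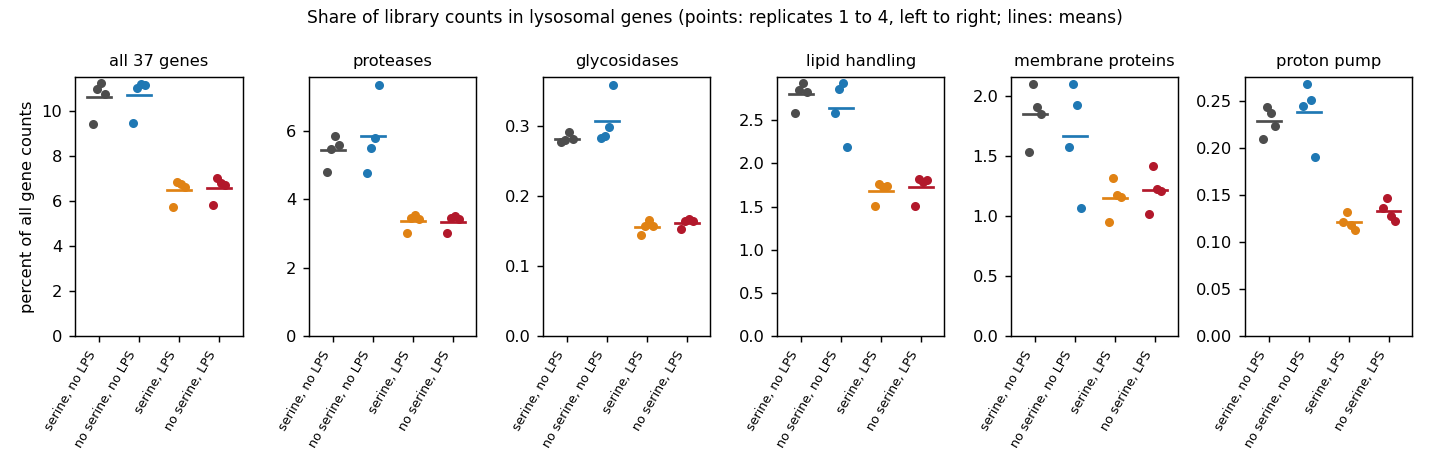
Percent of all gene counts in each library taken by the 37 lysosomal genes and by each of the 5 role groups (points are the 4 replicates, lines the group means, axes start at 0). The share of the 37 genes was 9.42% to 11.21% in untreated cells with serine and 5.73% to 6.83% after LPS, and the 2 ranges did not overlap.

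This drop is on the scale of the whole library, on which most genes moved the same way. Without TMM, edgeR's scaling that centres libraries on the bulk of genes, the median of all 11004 genes shifted by -0.64 (log2) with LPS in the presence of serine, against -0.029 with it, and that of the 37 genes was -0.70 against -0.080. On total counts 31 of the 37 fell and 1 rose, where 58.2% and 15.1% of all genes did. Fold changes and CPM below are on the TMM scale, that is, relative to the bulk of genes.

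Per kilobase of exon the 4 with the highest means in untreated cells with serine were Ctsd, Psap, Ctss and Ctsb. Ctsd, the aspartic protease cathepsin D, stood at 6899 ± 940 CPM per kb (SD, n = 4). Psap, the precursor of the saposins that activate sphingolipid hydrolases, stood at 5422 ± 558, Ctss, a cysteine protease of antigen processing, at 2889 ± 320, and Ctsb, cathepsin B, at 2650 ± 265 CPM per kb. The lowest means were those of Mcoln1, the calcium channel mucolipin-1, at 5.60 ± 0.19, Ctsk, the collagen-degrading cathepsin K, at 6.68 ± 1.78, and Smpd1, acid sphingomyelinase, at 6.92 ± 0.60 CPM per kb. Means plus or minus 1 SD overlapped between Ctsd and Psap, between Ctss and Ctsb, and between Ctsk and both Mcoln1 and Smpd1, so the order within these is not resolved. Of its 2351 exon bases Ctsd shares 808 with Gm49369 on the same strand. Ctsb shares 774 of 6051 with Fdft1 on the opposite strand. The part of these stretches in the levels was not tested.

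**Figure D2:**
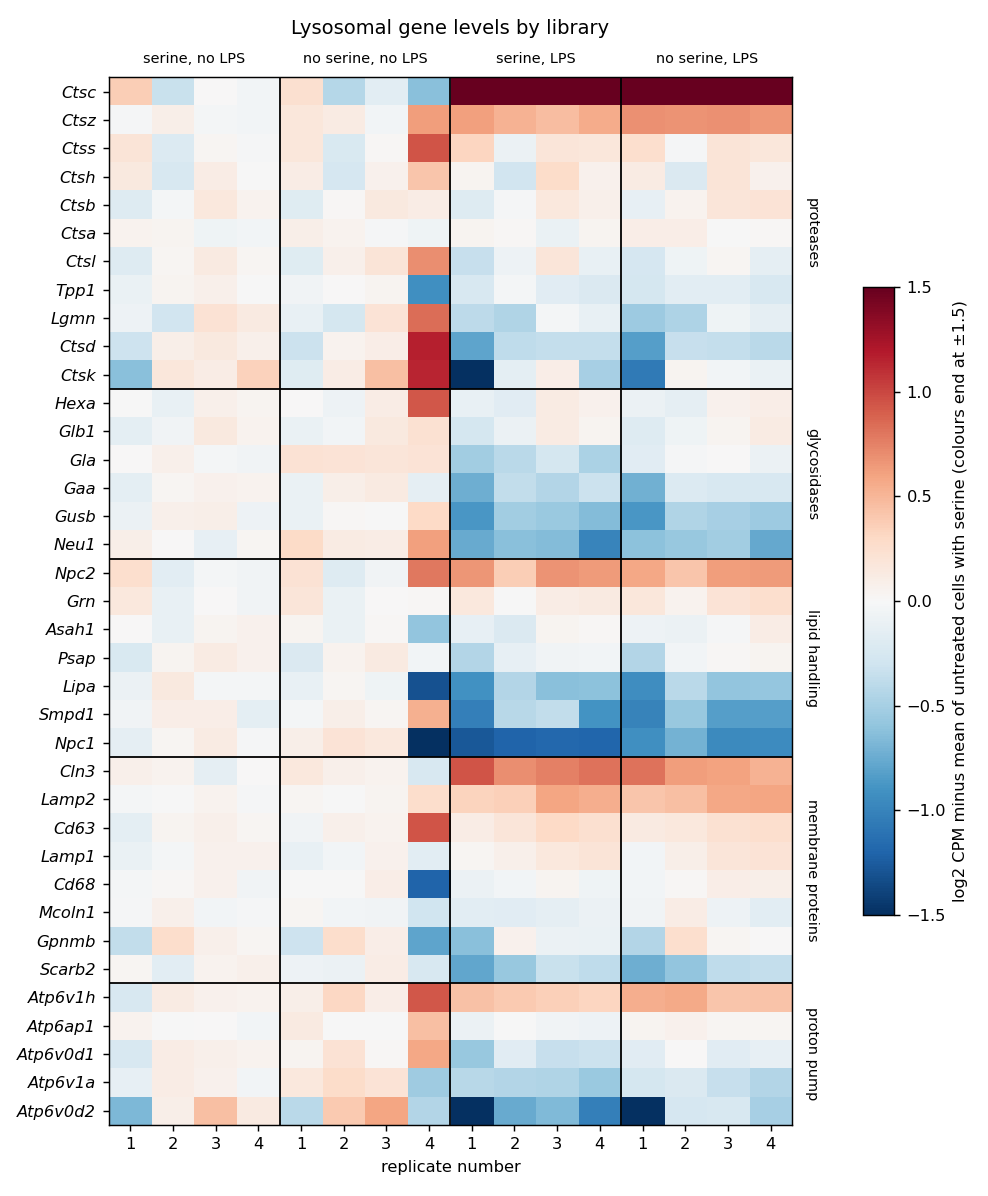
Log2 CPM (TMM-adjusted) of each of the 37 genes in each of the 16 libraries, minus the gene's mean in untreated cells with serine; rows are grouped by role and ordered by the LPS fold change, and colours end at ±1.5. Ctsc is far above its untreated level in all 8 LPS-treated libraries, and replicate 4 of the untreated cells without serine differs from the other 3 of its group in most rows.

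The first comparison asked how LPS changed these genes in cells with serine. By edgeR's quasi-likelihood test 5 of the 37 rose, where 27.6% of all genes did, and 11 fell, where 28.2% did. The number that fell was near the share of all genes, and the number that rose was below it. The 5 were Ctsc, Cln3, Npc2, Ctsz and Lamp2, of which only Ctsc also rose on total counts. The 11 were Npc1, Atp6v0d2, Neu1, Smpd1, Gusb, Lipa, Scarb2, Atp6v1a, Gaa, Gla and Atp6v0d1, and they fell on total counts too. With the replicate number as a block 6 rose and 12 fell (29.7% and 30.7% of all genes), the additions being Atp6v1h and Ctsd. With the block and the untreated library 4 without serine left out, which is not in this comparison but enters the shared spread, 9 rose and 17 fell (36.5% and 37.5%).

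Among the 11 proteases, 2 rose and none fell. Ctsc, cathepsin C or dipeptidyl peptidase I, which activates serine proteases of granules, had the largest change of the 37. It stood at 254, 157, 198 and 192 CPM in untreated cells with serine and at 1722, 1609, 2432 and 2403 CPM after LPS. The lowest LPS-treated library was more than 6 times the highest untreated one, and the fold was 10.2 (log2 3.35 ± 0.24, SE; adjusted p = 5.41e-09; 2.73 on total counts). Ctsz, the carboxypeptidase cathepsin Z, stood at 922, 989, 917 and 907 CPM before and 1428, 1336, 1289.6 and 1371 CPM after LPS, with no overlap (log2 0.54 ± 0.12, adjusted p = 0.00148), but at -0.078 on total counts (adjusted p = 0.521). Exons of Ctsz overlap those of Nelfcd on the opposite strand by 10 bases. Exons of 12 of the 37 genes overlap those of another gene. The larger overlaps among the proteases were 2137 bases in Ctsl, 819 in Ctsa, 808 in Ctsd and 774 in Ctsb.

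The other 9 proteases did not pass the test. Ctsd stood at 12939.8, 17149, 17768 and 17025 CPM in untreated cells and at 9283, 12392, 12550.4 and 12597 CPM after LPS. All 4 LPS-treated libraries lay below all 4 untreated ones, with replicate 1 the lowest of each group, at log2 -0.47 ± 0.25 (adjusted p = 0.123, and 0.0385 with the block). Ctsk stood at 6.26, 11.1, 10.6 and 12.5 CPM and, after LPS, at 2.68, 8.81, 10.5 and 6.86 CPM, lower in each of the 4 pairs with overlapping groups (log2 -0.49 ± 0.37, adjusted p = 0.286). Ctss, whose gene begins 17423 bases from the end of Ctsk on chromosome 3, stood at log2 0.15 on a far higher level per kilobase. The rest ranged from -0.25 for Lgmn, the asparaginyl endopeptidase legumain, to 0.025 for Ctsh, cathepsin H. Between them lay Tpp1 (tripeptidyl peptidase 1) at -0.16, Ctsl (cathepsin L) at -0.080, Ctsa (cathepsin A, which shields beta-galactosidase and neuraminidase 1) at -0.0016 and Ctsb at 0.0068.

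Of the 6 glycosidases 4 fell and none rose. Neu1, the sialidase, stood at 95.4, 90.2, 82.6 and 91.3 CPM in untreated cells and 52.8, 58.2, 57.1 and 45.2 CPM after LPS. The groups were well apart, at log2 -0.75 ± 0.12 (adjusted p = 7.23e-05). Gusb, beta-glucuronidase, fell by 0.65 on the log2 scale (adjusted p = 0.000305). Gaa, the alpha-glucosidase that degrades glycogen, stood at -0.46 ± 0.13 (adjusted p = 0.00615) and Gla, the alpha-galactosidase that clears globotriaosylceramide, at -0.42 ± 0.091 (adjusted p = 0.000896), and neither gene's groups overlapped. Hexa, the alpha subunit of beta-hexosaminidase, stood at 1129.9, 1044, 1191 and 1166 CPM and at 1045, 1007, 1227 and 1183 CPM, with overlapping groups and log2 -0.022 ± 0.18 (adjusted p = 0.932). Glb1, beta-galactosidase, stood at -0.042 ± 0.12 (adjusted p = 0.793).

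Among the 7 genes of lipid handling, the pair that passes cholesterol out of the lysosome moved in opposite directions relative to other genes. Npc1, the membrane protein of that pair, stood at 458, 510.4, 544 and 495 CPM in untreated cells and 208, 218, 222 and 219 CPM after LPS. The LPS-treated libraries lay within a narrow band below all untreated ones, at log2 -1.21 ± 0.28 (fold 0.43, adjusted p = 0.00137). Exons of Npc1 and of Rmc1 on the other strand share 511 bases, and the use of strand in counting is not given in the sources used here. Rmc1 stood at -0.66 ± 0.17 (adjusted p = 0.00394), with a mean of 26.1 CPM before and 16.6 CPM after LPS. Npc2, the soluble cholesterol carrier, stood at 1683, 1271, 1384 and 1364 CPM before and 2237, 1837, 2270.2 and 2201 CPM after LPS, without overlap (log2 0.58 ± 0.18, adjusted p = 0.0096), but at -0.036 on total counts (adjusted p = 0.823). Smpd1 fell by 0.66 (adjusted p = 0.00336) and Lipa, the acid lipase that frees cholesterol and fatty acids, by 0.64 (adjusted p = 0.0196). The call of Lipa was lost when untreated replicate 2 or LPS-treated replicate 1 was left out, and when replicate 1 was dropped from all 4 groups (adjusted p = 0.0509, 0.0619 and 0.0763 by edgeR). Psap, Asah1 (acid ceramidase) and Grn (progranulin, a secreted protein that is split into granulins in lysosomes) stood at -0.16, -0.068 and 0.10 and did not pass.

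Of the 8 membrane proteins 2 rose and 1 fell. Cln3, mutated in juvenile Batten disease, stood at 99.4, 97.7, 85.4 and 94.4 CPM in untreated cells and 181, 153, 159 and 165 CPM after LPS, without overlap. Its log2 fold change was 0.80 ± 0.11 (adjusted p = 8.76e-06) and 0.19 on total counts (adjusted p = 0.239). Its exons share 442 bases with Apobr on the opposite strand, which stood at 0.92 ± 0.21 (adjusted p = 0.00138) and 81.2 CPM before against 153.4 CPM after LPS, so without strand the reads of these genes cannot be told apart there. Lamp2, a major coat protein of the lysosomal membrane and the receptor of chaperone-mediated autophagy, stood at 0.46 ± 0.10 (adjusted p = 0.00106; -0.16 on total counts), while its relative Lamp1 stood at 0.11 ± 0.10 (adjusted p = 0.36). Scarb2, the receptor that carries glucocerebrosidase to lysosomes, stood at 305, 269.6, 312 and 316 CPM before and 174, 202, 237 and 229.9 CPM after LPS, below every untreated library (log2 -0.51 ± 0.13, adjusted p = 0.00238). The tetraspanin gene Cd63, the macrophage glycoprotein gene Cd68, Mcoln1 and Gpnmb, a glycoprotein of phagocytes, stood at 0.21, -0.035, -0.14 and -0.18 and did not pass.

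Of the 5 proton pump genes 3 fell and none rose. The d subunit links the membrane sector of the pump to its stalk, and its genes are the broadly expressed Atp6v0d1 and the osteoclast- and macrophage-enriched Atp6v0d2. Atp6v0d1 stood at 148, 189, 185 and 181 CPM in untreated cells and 118, 155, 138 and 139.7 CPM after LPS, with replicate 1 of the untreated cells inside the LPS range. Atp6v0d2 stood at 60.9, 103, 133 and 106 CPM and at 28.6, 57.3, 61.3 and 47.6 CPM, where replicate 1 of the untreated cells was again inside the LPS range and every pair was lower after LPS. The log2 fold changes were -0.35 ± 0.13 (adjusted p = 0.0334) and -1.05 ± 0.32 (adjusted p = 0.0107). The d1 call was lost in 6 of the fits that left out 1 library of the compared groups: untreated replicates 2, 3 or 4, or LPS-treated replicates 1, 3 or 4 (adjusted p from 0.0578 to 0.105). It was lost too with no filter on low counts (adjusted p = 0.192) and with DESeq2's size factors in edgeR (adjusted p = 0.0504). Atp6v1a, the catalytic A subunit, fell by 0.47 (adjusted p = 0.0107). Atp6v1h, a regulatory subunit, stood at 113, 146, 139 and 139 CPM before and 182, 176, 172 and 167 CPM after LPS, every LPS-treated library above the untreated ones, at log2 0.37 ± 0.16 (adjusted p = 0.0528, 0.0417 with the block, and -0.24 on total counts). Atp6ap1, an accessory protein of pump assembly, stood at -0.054 ± 0.10 (adjusted p = 0.697).

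In the libraries themselves the LPS-treated and untreated groups with serine did not overlap for 18 of the 37 genes, 7 higher and 11 lower after LPS (30.7% and 30.9% of all genes). On total counts 2 were higher and 31 lower (15.7% and 60.6%). The authors' deposited table for this comparison marks 6 of the 37 as higher and 11 as lower, with Atp6v1h as the sixth higher gene, on a list of 11583 genes of which it marks 27.9% and 27.5%.

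**Figure D3:**
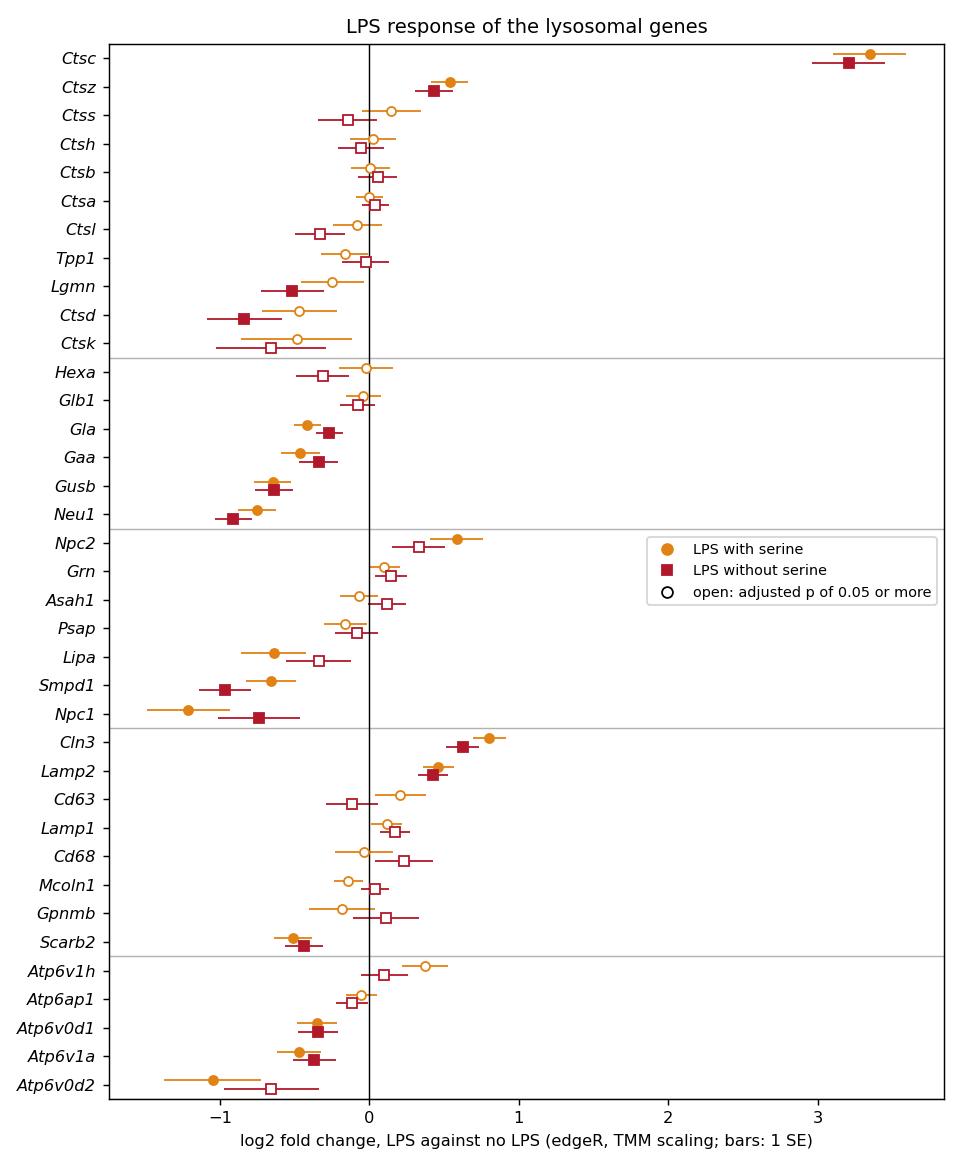
Log2 fold change with LPS (edgeR, TMM scaling; bars are 1 SE) of the 37 genes in cells with serine (circles) and without (squares); filled symbols passed an adjusted p of 0.05. Ctsc stands alone at about 3 log2 units in both media, and Ctsz, Lamp2 and Npc2, above 0 here, lie below 0 on total counts.

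The second comparison asked the same in cells without serine. Here 4 of the 37 rose (27.1% of all genes) and 11 fell (29.7%). Ctsc, Cln3, Ctsz and Lamp2 rose, at 3.21, 0.62, 0.43 and 0.43. On total counts 1 rose and 30 fell (15.3% and 59.7%), and Ctsz and Lamp2 stood at -0.11 and -0.13. Smpd1 fell by 0.97, Neu1 by 0.91, Ctsd by 0.84, Npc1 by 0.74, Gusb by 0.64, Lgmn by 0.52, Scarb2 by 0.44, Atp6v1a by 0.37, and Atp6v0d1 and Gaa by 0.34 each, and Gla by 0.27. Among the 22 that did not pass, the proteases were Ctsa at 0.039, Ctsb at 0.055, Ctsh at -0.056, Ctsk at -0.66, Ctsl at -0.33, Ctss at -0.15 and Tpp1 at -0.024. The glycosidases were Glb1 at -0.079 and Hexa at -0.31. The lipid genes were Asah1 at 0.12, Grn at 0.15, Lipa at -0.34, Npc2 at 0.33 and Psap at -0.086. The membrane proteins were Cd63 at -0.12, Cd68 at 0.23, Gpnmb at 0.11, Lamp1 at 0.17 and Mcoln1 at 0.037. The pump genes were Atp6ap1 at -0.12, Atp6v0d2 at -0.66 and Atp6v1h at 0.10. Without replicate 4 of the untreated cells 6 rose and 11 fell (31.3% and 32.1% of all genes). Among those that did not pass with it, Hexa stood at -0.026 without it (adjusted p = 0.818), Ctsl at -0.14 (0.352), Ctsk at -0.39 (0.352) and Cd68 at 0.011 (0.902), while Ctss at 0.16 and Cd63 at 0.17 lay above 0 in place of below (0.276 and 0.0726). Ctsd then stood at -0.43 (adjusted p = 0.0235), Npc1 at -1.03 (9.82e-09) and Lipa at -0.57 (0.000675), against -0.84, -0.74 and -0.34 with it.

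The 2 library sets without serine show how far that library moved these values. Npc1 stood at 534, 576, 561 and 146 CPM in untreated replicates 1 to 4 and at 264, 308, 258 and 260.4 CPM after LPS. Replicate 4 alone lay below the LPS-treated libraries, and the other 3 lay well above them. Ctsd stood at 12845, 16760.5, 17282 and 36064 CPM and, after LPS, at 9062, 12694, 12545 and 12133 CPM. Here replicate 4 was far above the rest of its group. Lgmn lost its call without that library, at -0.24 (adjusted p = 0.187), as did Atp6v0d1, at -0.21 (0.0857). Npc2 and Atp6v1h rose without it, at 0.57 and 0.32 (adjusted p = 0.000576 and 0.00488). With the replicate block and all 16 libraries Npc2 also rose (adjusted p = 0.0469), and Ctsk and Atp6v0d2 fell (adjusted p = 0.0182 and 0.00104), against 0.119, 0.138 and 0.0892 without it, for 5 that rose and 13 that fell (29.4% and 31.6%). Without that library Tpp1 fell by 0.20 (adjusted p = 0.0237). With the block and without that library 10 rose and 17 fell (35% and 35.8%).

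Ctsc in these cells stood at 233, 147, 177 and 128 CPM before and 1305, 1162, 1993 and 1878 CPM after LPS, again with no overlap and a fold of 9.24. Neu1 stood at 109, 97.6, 96.9 and 138 CPM before and 58.6, 60.7, 62.4 and 52.4 CPM after, with all LPS-treated libraries lower. Over all 37 genes the groups did not overlap for 4 higher and 8 lower (25.3% and 22.4% of all genes), on total counts for 1 higher and 25 lower (14.1% and 43.5%), and without untreated library 4 for 7 higher and 12 lower (30.5% and 31.8%). The number that fell was 7 without untreated replicate 2 or 3 (28.5% and 28.7% of all genes), 5 without LPS-treated replicate 1 (26.7%) and 7 without LPS-treated replicate 4 (25.9%). The authors' deposited table marks 2 of the 37 as higher, Ctsc and Cln3, and 2 as lower, Neu1 and Smpd1, where it marks 19.1% and 17% of its 11573 genes. Its marks in these tables reach an adjusted p of at most 0.00999, a stricter limit than the 0.05 used here.

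The study's purpose is given by its title, the support of macrophage cytokine production by serine metabolism, and further comparisons asked what serine withdrawal did. In untreated cells none of the 37 genes passed edgeR's test, nor did any of the 11004 genes (0% in each direction); 3 of the 37 and 548 of all genes had an unadjusted p under 0.05. With the block 0.0818% of all genes rose and none of the 37, and DESeq2 called 13 genes and none of the 37. The smallest unadjusted p were those of Atp6v1h (log2 0.39 ± 0.16), Neu1 (0.29 ± 0.12) and Gla (0.20 ± 0.090), each with adjusted p = 0.816 by edgeR. Without untreated library 4 of the medium lacking serine they stood at 0.16, 0.17 and 0.20 (adjusted p = 1 each). Gla stood at 289, 305, 284 and 278 CPM with serine and 335, 333, 326 and 333 CPM without, with no overlap. Neu1 was likewise higher in all 4 libraries without serine. Atp6v1h stood at 142, 166, 143 and 254 CPM without serine, higher in each pair, with replicate 4 far above the others. Groups did not overlap for 2 of the 37, Gla and Neu1, both higher (1.46% of all genes were higher and 1.32% lower), and for none on total counts (0.963% and 1.71%). Without library 4 they did not overlap for 3, with Atp6v1a added (3.99% and 2.57%).

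In LPS-treated cells none of the 37 passed in the unpaired or the block fit of edgeR, where 0.0545% and 0.663% of all genes rose and 0.00909% and 0.227% fell; 1 of the 37 and 676 of all genes had an unadjusted p under 0.05. With the block 3 of the 37 had an unadjusted p under 0.05. DESeq2 called 1 of the 37, Gla (0.725% and 0.172% of the genes to which it gave an adjusted p rose and fell). Gla stood at 201, 218, 240.2 and 207 CPM with serine and 256, 284, 291 and 271 CPM without it, every library without serine above every library with it. Its log2 fold change was 0.35 ± 0.091 (adjusted p = 0.226 by edgeR, 0.0816 with the block). Replicate 4 of the untreated cells without serine takes no part in this contrast but enters the shared spread. Without that library Gla and Npc1 rose (adjusted p = 0.0234 and 0.0405; 1.01% of all genes rose and 0.396% fell), and with the block as well 5 rose and none fell (4.98% and 3.32%): Gla, Npc1, Atp6v0d2, Atp6v0d1 and Gpnmb. The last fit leaves out the library that stood apart in these same genes, so its calls were not an independent test. Atp6v0d2, Atp6v0d1 and Gpnmb passed in no other fit. With the block and all 16 libraries their adjusted p by edgeR were 0.271, 0.539 and 0.925. Npc1, Atp6v0d2 and Gpnmb were singled out for this comparison after their values were seen, as was Atp6v1a in the plot of withdrawal by replicate number.

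Npc1 stood at 208, 218, 222 and 219 CPM in LPS-treated cells with serine and at 264, 308, 258 and 260.4 CPM without. The groups did not overlap (log2 0.33 ± 0.28, adjusted p = 1; 0.33, adjusted p = 0.00105, with the block and without that library). Atp6v0d1 stood at 118, 155, 138 and 139.7 CPM with serine and 156, 175, 155 and 161 CPM without, and Atp6v0d2 at 28.6, 57.3, 61.3 and 47.6 CPM and 34.1, 81.7, 82.2 and 68.6 CPM. Both were higher in each of the 4 pairs while their groups overlapped, at 0.23 ± 0.13 and 0.45 ± 0.32 in the unpaired fit (adjusted p = 0.929 and 1) and at adjusted p = 0.0166 and 0.00128 with the block and without that library. Gpnmb stood at 6243, 10040.5, 9049 and 8964 CPM and 7068, 11484, 9808 and 9668 CPM, higher in each pair at 0.15 ± 0.22 (adjusted p = 1, or 0.0115 in the last fit). In untreated cells Npc1 was higher without serine in pairs 1 to 3 and lower in pair 4, and its log2 value was -0.14, or 0.15 without that library (adjusted p = 1).

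**Figure D4:**
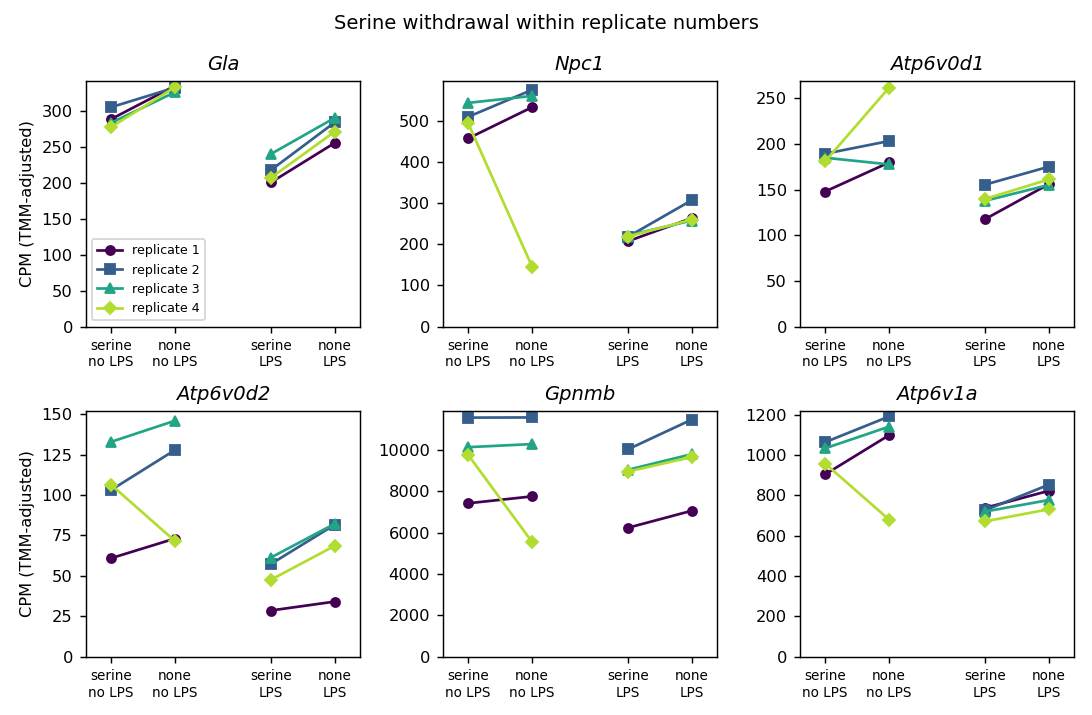
CPM (TMM-adjusted) with and without serine in untreated cells (left pair of each panel) and LPS-treated cells (right pair); lines join libraries with the same replicate number. In LPS-treated cells all 6 genes were higher without serine in 4 of 4 pairs. Npc1, Atp6v0d2, Gpnmb and Atp6v1a were picked after their values were seen, and Gla and Atp6v0d1 for a small unadjusted p. Ctsc, next by unadjusted p and named by the same rule, is not plotted, and it was lower without serine in all 4 pairs. The shared direction thus follows in part from the choice of genes. Of all 37 genes 14 were higher in all 4 pairs, where 18.6% of all genes were. In untreated cells replicate 4 goes against the others for Npc1, Atp6v0d2, Gpnmb and Atp6v1a.

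Counting only direction, 14 of the 37 genes were higher without serine in all 4 LPS-treated pairs (18.6% of all genes) and 3 in none, namely Ctsc, Cln3 and Lgmn (16%). All 5 proton pump genes were among the 14. Outside the 37, 10 of 13 other pump genes were higher in all 4 pairs and 2, Atp6v0a2 and Atp6v0e, in none. None of these 18 pump genes passed the test. On total counts the numbers were 15 and 3 of the 37 (16.5% and 18.6% of all genes), 5 of 5 and 9 of 13. In untreated cells 6 of the 37 (8.72%), 1 of the 5 and 5 of the 13 were higher in all 4 pairs, and 2 of the 37 in none (10.1%). On total counts 3 and 2 of the 37 were (6.1% and 12.5%). Over the 3 pairs without library 4, 14 of the 37 were higher in all (20.2%) and 7 in none (18.4%), with 3 of the 5 and 7 of the 13 pump genes higher in all. Ctsc stood at -0.37 ± 0.22 (adjusted p = 0.984; 0.629 with the block), lower without serine in every pair with overlapping groups. The groups of 4 of the 37 genes did not overlap, Gla, Npc1, Atp6ap1 and Ctsz, all higher without serine (4.27% of all genes were higher and 3.31% lower). On total counts 2 did not overlap, both higher (3.28% and 3.71%).

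Whether LPS responses differed with serine was tested as the difference of the 2 withdrawals, which is also the difference of the 2 LPS responses. None of the 37 and none of the 11004 genes passed (0% in each direction), 0 of the 37 and 253 of all genes had an unadjusted p under 0.05, and DESeq2 called 1 gene, not among the 37. The smallest unadjusted p were those of Cd63 (-0.32 ± 0.24), Mcoln1 (0.18 ± 0.14) and Smpd1 (-0.31 ± 0.24), with an edgeR adjusted p of 0.95 each. Without untreated library 4 of the medium lacking serine Smpd1 stood at -0.18 and Mcoln1 at 0.12 (adjusted p = 1 each). Cd63 stood at 595, 676, 693 and 670.4 CPM, 636, 691, 685 and 1261 CPM without serine, 708, 748, 808 and 777 CPM with LPS and 719.5, 736, 773 and 784 CPM with LPS and no serine. Its value of 1261 CPM in replicate 4 of the untreated cells without serine stood apart from the next highest of the 16 libraries, at 808 CPM, and without that library the difference was -0.038 (adjusted p = 1). Smpd1 stood at 22.1, 24.8, 24.8 and 20.7 CPM in untreated cells with serine, 22.6, 24.5, 23.5 and 33.4 CPM without, 11.2, 17.3, 17.8 and 12.3 CPM with LPS and 11.4, 15.4, 12.9 and 12.9 CPM with LPS and no serine, so every LPS-treated library lay below every untreated one. Mcoln1 ranged only from 34.4 to 45.6 CPM over the 16 libraries.

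Replicate 1 differed from the other numbers for several of these genes. In 8 of the 37 it was the lowest library in all 4 groups (5.1% of all genes), and in 2, Ctsa and Cln3, the highest in all 4 (9.03%). The 8 were Ctsb, Ctsd, Ctsk, Ctsl, Glb1, Gusb, Psap and Cd63. Leaving aside the group with the library that stands apart, replicate 1 minus the mean of replicates 2 to 4 averaged -1.15 (log2) for Ctsk, -1.003 for Atp6v0d2, -0.54 for Gpnmb and -0.44 for Ctsd. The 4 libraries numbered 1 had no Xist count and 1214 to 2420 counts of Y-linked genes, against at most 16 in the others, and held 81.3 to 107.3 CPM of neutrophil markers against 8.29 to 30.7 CPM. Sex and replicate number 1 cannot be told apart here, and the part of either in these differences was not tested.

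Other lysosomal genes, from 6 lists chosen by function with 99 genes in all, changed in both directions with LPS. Of 98 tested 21 rose and 33 fell in cells with serine, where 27.6% and 28.2% of all genes did. The same shares of all genes stand beside the counts of each list below. The median of the 98 was -0.13 on the log2 scale, against -0.080 for the 37 and -0.029 for all genes. On total counts 12 rose and 78 fell, where 15.1% and 58.2% of all genes did. Among 38 further hydrolases and activators 4 rose and 13 fell, from Acp5, tartrate-resistant acid phosphatase and one of the osteoclast markers, at 2.18 ± 0.23 (adjusted p = 6.06e-07) to Sgsh, a sulfatase of heparan sulfate breakdown, at -2.58 ± 0.19 (adjusted p = 7.03e-09). Among 28 membrane proteins and transporters 7 rose and 12 fell, from Slc15a3, a peptide and histidine transporter, at 2.52 ± 0.14 to Ctns, the cystine exporter, at -2.12 ± 0.21. Of 12 genes that sort proteins to the lysosome 2 rose and 5 fell, with the cation-dependent mannose 6-phosphate receptor gene M6pr at 0.92 ± 0.12 and the adaptor gene Gga2 at -1.19 ± 0.17. Of 3 tested inhibitors of cysteine proteases 1 rose, Cst7 (cystatin F, which inhibits cathepsin C), at 2.95 ± 0.55 (adjusted p = 0.000237), and the lowest was Cst3 at 0.12. All 4 MiT factor genes passed: Tfec rose by 3.53, Mitf by 2.06 and Tfe3 by 0.25, while Tfeb fell by 1.70 on the log2 scale (Tfe3 adjusted p = 0.0205, and -0.36 on total counts with adjusted p = 0.00595).

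The proton pump showed the same mixture. Of 13 further pump genes 4 rose and 2 fell with LPS in cells with serine, where 27.6% and 28.2% of all genes did. Atp6v1e1, a stalk subunit, was the highest at 1.57 ± 0.18 (adjusted p = 1.63e-06), and Atp6v0a1, a membrane sector subunit, the lowest at -1.17 ± 0.18 (adjusted p = 3.34e-05). On the TMM scale the summed level of the 13 was 2922 ± 144 CPM before and 3593 ± 32.0 CPM after LPS (SD, n = 4). The TMM factors were 1.24 to 1.27 in the untreated libraries with serine and 0.79 to 0.86 in the LPS-treated ones. The rise of this sum therefore does not hold on total counts, on which more of the 13 genes fell than rose.

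**Figure D5:**
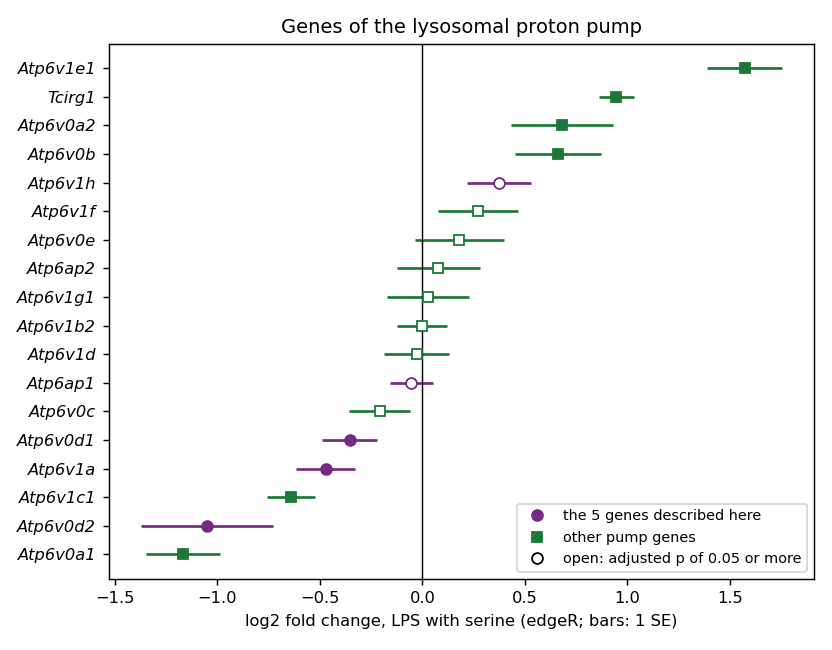
Log2 fold change with LPS in cells with serine (edgeR, TMM scaling; bars are 1 SE) of the 5 proton pump genes described here (circles) and 13 other pump genes (squares), with filled symbols past an adjusted p of 0.05. Values run from -1.17 for Atp6v0a1 to 1.57 for Atp6v1e1. On total counts 2 of the 13 rose and 8 fell, and of the 5, 4 fell, where 15.1% of all genes rose and 58.2% fell.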

How the data were processed

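RNA of 16 libraries (4 groups of 4) was purified with RNeasy columns and sequenced on an Illumina NextSeq. The tools were edgeR, HTSeq, SAMtools, STAR and Trimmomatic 0.33, with build mm10, per the submitters' processing notes; the use of strand and the other versions are not given in the sources used here. The deposited gene counts are raw whole numbers per library. The authors' deposited edgeR tables hold log2 fold changes, an adjusted p-value and marks for higher and lower genes; only those marks are quoted. Another 24 columns of per-sample values were left out.

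Counts were analysed with edgeR 4.0.16 in R 4.3.3 (filterByExpr, TMM, robust quasi-likelihood fit of 4 group means over 16 libraries, Benjamini-Hochberg over 11004 genes, threshold 0.05). The biological coefficient of variation was 20.9%. CPM use TMM-adjusted library sizes, and levels per kilobase use merged exons of GENCODE M21 (GRCm38). DESeq2 1.42.0, other scalings and filters, left-out libraries and a replicate block were alternatives, and the fit was tested on simulated data. The replicate numbers were taken to pair the libraries, which the labels do not state. Same-numbered libraries deviated together in all 4 comparisons of pairs (lowest correlation 0.1261, highest 0.6534, over genes). Differently numbered libraries stood at -0.3683 to 0.135, below the same-numbered ones within each comparison. The blocked value therefore stands beside a result where it changes the call. No pair of libraries agreed within sampling noise. Sequences are RefSeq's. The 37 genes and the other lists were chosen with earlier results of these data known. Every one of the 37 is named with its LPS fold change; library values are given for the extremes of each role, the gene with the highest mean per kilobase, the d subunit pair, Ctsk and genes named for serine withdrawal.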

Additional observations from a re-analysis of the deposited data

Results flagged for a closer look

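Each of the 37 genes was checked in each of the 4 groups, 148 sets of 4 libraries in all, for a library whose gap to its nearest neighbour exceeds Dixon's critical share of the range of the 4. There were 16 such libraries, where chance gives about 1 in 20 sets, and 7 of the 16 came from replicate 4 of the untreated cells without serine. That library stood above the other 3 for Cd63, at 1261 CPM, for Hexa, at 2156 CPM, and for Lamp2, at 887 CPM. It stood below them for Cd68, at 492 CPM, for Lipa, at 792 CPM, for Npc1, at 146 CPM, and for Tpp1, at 161 CPM.

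Libraries numbered 1 gave 6 of the other cases. Ctsd stood low there at 12939.8 CPM in untreated cells with serine, 9283 CPM after LPS with serine and 9062 CPM after LPS without serine. Ctsk stood low at 4.57 CPM after LPS without serine. Gaa stood at 122 CPM in untreated cells with serine and at 82.2 CPM after LPS without serine. The other 3 were Ctsa at 821 CPM in replicate 3 and Npc2 at 1837 CPM in replicate 2 after LPS with serine, and Npc1 at 308 CPM in replicate 2 after LPS without it.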

How the results depend on the processing

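Of the 16 calls with LPS in the presence of serine, 9 held in each of 24 alternatives (Ctsc, Gaa, Gla, Gusb, Neu1, Smpd1, Npc1, Scarb2 and Atp6v0d2), as did 5 of 15 in its absence (Ctsc, Ctsd, Gusb, Neu1 and Smpd1). Among these alternatives, total-count scaling lowered the LPS fold changes of all 37 genes and so favours lower calls over higher ones. With serine Ctsz, Npc2, Lamp2 and Cln3 lost their higher call in that alternative only. The share of calls over all genes that held throughout was not counted. Scaling by total counts gave 1 higher and 31 lower of the 37 with serine (median -0.70; 2 higher and 31 lower without overlap of the libraries) and 1 and 30 without serine (median -0.66; 1 and 25). It turned these log2 values with serine: Ctsb -0.61, Ctsh -0.60, Ctss -0.47, Ctsz -0.078, Npc2 -0.036, Grn -0.52, Lamp1 -0.50, Lamp2 -0.16, Cd63 -0.41 and Atp6v1h -0.24. Without serine it turned Ctsa -0.53, Ctsb -0.51, Ctsz -0.11, Asah1 -0.47, Npc2 -0.21, Grn -0.42, Lamp1 -0.40, Lamp2 -0.13, Cd68 -0.37, Mcoln1 -0.54, Gpnmb -0.48 and Atp6v1h -0.44. It left no gene of the 37 apart between media in untreated cells and 2 in LPS-treated cells, and the median of the difference was 0.068. With DESeq2's size factors in edgeR or with DESeq2 itself Ctsa stood at 0.015 with serine, and DESeq2 called 1 of the 37 on withdrawal under LPS. With no filter on low counts the medians were -0.0029 and -0.039, and 4 fell without serine, where 12.7% of all genes did. The values that turned were Ctsa 0.076, Hexa 0.056, Glb1 0.035, Asah1 0.0097, Cd68 0.043 and Atp6ap1 0.024 with serine and Ctsh 0.022 and Tpp1 0.047 without. Fits on the compared groups alone called 5 lower without serine, where 23.2% of all genes were, and Ctsb stood at -0.0038 with serine.

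Leaving out single libraries or all libraries numbered 1, the number lower with LPS ran from 5 to 11 without serine, and the number higher on withdrawal under LPS from 0 to 2. The medians ran from -0.14 to -0.048 with serine, -0.17 to -0.026 without, 0.0096 to 0.094 for withdrawal under LPS and -0.059 to 0.042 for the difference. Without untreated library 4 the libraries did not overlap for 7 higher and 12 lower genes with LPS without serine, a count chosen after seeing the data, as were those given above for withdrawal in untreated cells without it. Log2 values that changed sign ranged with serine as Ctsa -0.027 to 0.030, Ctsb -0.054 to 0.070, Ctsh -0.063 to 0.12, Ctsl -0.18 to 0.0015, Hexa -0.070 to 0.025 and Glb1 -0.10 to 0.027. Without serine they ranged as Ctsb -0.0069 to 0.12, Ctsh -0.16 to 0.066, Ctss -0.29 to 0.16, Tpp1 -0.20 to 0.058, Asah1 -0.0049 to 0.18, Psap -0.15 to 0.012, Cd63 -0.22 to 0.17, Mcoln1 -0.022 to 0.076, Gpnmb -0.056 to 0.27 and Atp6v1h -0.030 to 0.32, and on withdrawal in untreated cells as Npc1 -0.28 to 0.15, Atp6v1a -0.028 to 0.21 and Atp6v0d2 -0.14 to 0.22. None of those that changed sign had passed the test in all 16 libraries. The cause was not tested for these changes, other than by the fewer libraries themselves.

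The replicate block alone changed no call beyond those given above, and moved no number of the 37 called by over 1.5 times; on withdrawal under LPS 3 of the 37 had an unadjusted p under 0.05 with it, against 1. With the block and the untreated library 4 without serine left out, 9 rose and 17 fell with LPS in the presence of serine, 10 and 17 in its absence (median -0.055), and 5 rose on withdrawal under LPS. In that fit the values that turned were Ctsh 0.059, Ctss 0.16, Asah1 -0.037, Cd63 0.15, Mcoln1 -0.014, Gpnmb -0.075 and Atp6ap1 0.0060 for LPS without serine and Npc1 0.14 for withdrawal in untreated cells. Depth limits what is said of Ctsk, Smpd1 and Mcoln1, the least abundant of the 37. On simulated counts for LPS with serine over 10791 genes, 73 of 100 genes changed by 1 log2 unit and 100 of 100 changed by 2 were recovered, with 10 false calls. Changes of 1 log2 unit can thus be missed, and smaller ones were not simulated. The simulation changed only genes that were not low in counts, and held no pairing and no library that stood apart.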

Other observations

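On the TMM scale the 13 proton pump genes outside the 37 summed to 3545 to 3614 CPM in the 4 LPS-treated libraries with serine. In the 4 without it they summed to 3848 to 3954 CPM, so on that scale these groups did not overlap. The TMM factors were 0.79 to 0.86 with serine and 0.78 to 0.84 without, and on total counts the ranges of the sum overlap. The means were 3593 ± 32.0 and 3894 ± 47.3 CPM (SD, n = 4). No test was run on the sum, and none of these 13 genes passed edgeR's test alone. In untreated cells the sums were 2735 to 3077 CPM with serine and 3054 to 3223 CPM without it in replicates 1 to 3, with replicate 4 at 4058 CPM.

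The summed level of the 4 MiT factor genes with serine was 340 ± 12.6 CPM before and 746 ± 42.4 CPM after LPS, and 331 ± 21.1 and 774 ± 40.4 CPM without serine (SD, n = 4). The part of any of these factors in the values of the 37 genes was not tested.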
